A study of Mus musculus with 36 samples.

Results

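Ascl3/Foxi1-positive cells, as named here, are duct cells of the mouse submandibular salivary gland that hold transcripts from a set of 10 genes. The set joins the transcription factors Ascl3, Foxi1 and Foxi2 with genes found with them. A cell of this name need not hold a transcript of these 3 factors, and in 19.8% of the cells none of them was detected. A cell was counted as one when at least 1 unique molecular identifier (UMI, a tag that marks a single captured transcript) was present in 2 or more of Ascl3, Foxi1, Foxi2, Hepacam2, Atp6v1g3, Atp6v1b1, Slc4a11, Stap1, Nrip3 and Pde1c. Cells were kept when they held 100 genes or more and when mitochondrial genes gave under 15% of their UMIs. Of 25993 kept cells 1211 met this rule, and the UMIs of these 10 genes are therefore a description of the cells and no finding. The cells came from 30 glands, with between 0 and 115 per gland.

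Ascl3 is a basic helix-loop-helix factor known from salivary duct cells. Foxi1 and its relative Foxi2 are forkhead factors, and Foxi1 is known from ionocytes and from the intercalated cells of the kidney, where it drives genes of the vacuolar proton pump (V-ATPase). In such cells the pump, with its catalytic V1 domain outside and its V0 domain inside the membrane, moves protons while chloride and bicarbonate transporters exchange ions with the fluid in the duct.

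The study followed tumor formation in a mouse model of salivary gland carcinoma by Drop-seq, which captures single cells in droplets with barcoded beads, in 26 glands. CITE-seq, which reads surface proteins through antibody tags together with RNA, was made in 4 further glands, and bulk mRNA sequencing in 2. The study describes its control mice as K14-Cre with R26-EYFP, a reporter that Cre switches on, while the sample labels call them wildtype or control. Double-mutant mice carried K14-Cre, R26-EYFP, the β-catenin gain-of-function allele (beta-catenin GOF) and the Bmpr1a loss-of-function allele (Bmpr1a LOF), both recombined by the same Cre. All mice had a C57BL/6 background, no group was treated, and Cre was driven by the keratin 14 promoter, so that only cells with a history of keratin 14 expression could be recombined. Drop-seq covered 6 control and 7 double-mutant glands at postnatal day 40 (P40) and as many of each genotype at P90, and males and females were present in every one of these groups. CITE-seq covered 2 control and 2 double-mutant glands at P70. The control bulk library was from P70 and the double-mutant one from P100. Live single cells had been sorted before the libraries were made.

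Totals ranged from 777537 to 7013325 UMIs per gland in the kept cells, and the median cell of a gland held between 408 and 4671 UMIs. Only 29 of 30051 distinct barcodes occurred in 2 or more libraries, and 2 Ascl3/Foxi1-positive cells carried such a barcode. Xist and the Y-linked genes went against the sex label in 3 of 30 libraries (double-mutant P40 replicate 1, double-mutant P90 replicate 5 and CITE-seq control replicate 1) when the larger of both was taken as the sex. All 4 CITE-seq libraries, however, held both, with Xist at 66.5 to 166 and Y-linked genes at 34.7 to 61.8 UMIs per 1000000 UMIs, so that none of them matched 1 sex, and 3 of the 4 are labelled female. Double-mutant P90 replicate 4, which the study set aside in some of its steps for its ribosomal content, held no Ascl3/Foxi1-positive cell among 856 cells, a count that allows a share of up to 0.350%.

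Promoters of the 3 transcription factors and of Atp6v1b1 are shown because the 10 genes were detected together in the same cells. RefSeq promoters of build GRCm38.p6, from 250 bases before to 50 bases after the transcription start, were at hand for 7 of the 10 genes. The forkhead motif TGTTTAC (reverse complement GTAAACA) and the E-box CAGCTG, which reads the same on both strands, were searched on both strands, and capitals mark a forkhead match.
Ascl3, chr7:109731683-109731982, minus strand: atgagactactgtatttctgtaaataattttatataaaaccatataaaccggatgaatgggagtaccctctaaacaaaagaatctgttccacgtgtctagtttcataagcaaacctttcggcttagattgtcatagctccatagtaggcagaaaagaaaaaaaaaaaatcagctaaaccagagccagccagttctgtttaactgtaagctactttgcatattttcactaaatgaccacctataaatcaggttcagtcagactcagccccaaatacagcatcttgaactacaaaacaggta
Foxi1, chr11:34208040-34208339, minus strand: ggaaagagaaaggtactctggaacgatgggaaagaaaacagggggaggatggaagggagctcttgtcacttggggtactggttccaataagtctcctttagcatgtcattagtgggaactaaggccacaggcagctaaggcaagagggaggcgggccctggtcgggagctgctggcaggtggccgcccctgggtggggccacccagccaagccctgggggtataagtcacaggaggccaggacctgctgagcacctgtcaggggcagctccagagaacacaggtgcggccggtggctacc
Foxi2, chr7:135410117-135410416, plus strand: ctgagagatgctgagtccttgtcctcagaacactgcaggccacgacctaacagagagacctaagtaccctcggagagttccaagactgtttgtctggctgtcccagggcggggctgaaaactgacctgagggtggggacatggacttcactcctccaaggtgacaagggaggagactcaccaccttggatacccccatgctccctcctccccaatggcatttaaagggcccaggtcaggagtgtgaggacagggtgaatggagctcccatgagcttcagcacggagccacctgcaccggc
Atp6v1b1, chr6:83742767-83743066, plus strand: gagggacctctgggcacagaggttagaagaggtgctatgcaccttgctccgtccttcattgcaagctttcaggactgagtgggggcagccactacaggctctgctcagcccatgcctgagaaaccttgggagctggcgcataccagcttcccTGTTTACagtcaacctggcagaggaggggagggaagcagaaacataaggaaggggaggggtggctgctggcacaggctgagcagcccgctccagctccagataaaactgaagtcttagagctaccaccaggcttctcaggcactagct

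The forkhead motif was present in the windows of Atp6v1b1, 98 bases before the start, and of Pde1c, in 1 of its 3 windows. No exact match to either motif lay in the windows of Ascl3, Foxi1 or Foxi2. The forkhead motif is found in 3.65% of all 32851 promoters of the table and the E-box in 16.3%, the latter also in the windows of Hepacam2 and Pde1c. A match of letters is a description of the sequence and not a binding site.

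Ascl3 was the most often detected of the 10 genes, with a UMI in 60.1% of Ascl3/Foxi1-positive cells. Stap1, an adaptor of receptor signaling, followed with 52.9%, Hepacam2, an immunoglobulin-like membrane protein, with 46.3% and Slc4a11, a membrane transporter of the bicarbonate transporter family, with 42.7%. Pde1c, a calmodulin-dependent phosphodiesterase, was detected in 38.7%, Nrip3 in 37.3% and Foxi1 in 35.7%. Foxi2 was detected in 25.3%, and the V1 subunits Atp6v1g3 and Atp6v1b1, which are the forms used by acid-secreting epithelia, in 23.6% and 21.6%. The 10 genes were thus each missed in a large share of the cells, at a median depth of 1215 UMIs per cell.

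The same genes were rarely detected elsewhere, in part through the rule itself, since any cell with 2 or more of them was counted as Ascl3/Foxi1-positive. The values of this paragraph therefore describe the cell sets and are no test of how specific the genes are. Klk1 duct cells, defined as other epithelial cells with Klk1 at 1% or more of UMIs (2958 cells, median depth 1471.5 UMIs), held Ascl3 in 0.947% and Foxi1 in 0.575%. Immune cells (3150 cells, median depth 712.5 UMIs), which should lack both factors, held Ascl3 in 0.190% and Foxi1 in 0.0317%. Acinar cells (8796 cells, median depth 3632 UMIs) held Ascl3 in 0.421% and Foxi1 in 0.148%. Stap1 was found in 11.2% of immune cells, and Atp6v1b1 and Pde1c in 2.06% and 2.64% of Klk1 duct cells. These 3 genes were the least restricted, with 63.8%, 59.0% and 72.5% of all their UMIs in Ascl3/Foxi1-positive cells, against 93.4% for Ascl3 and 97.1% for Foxi2.

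**Figure D1:**
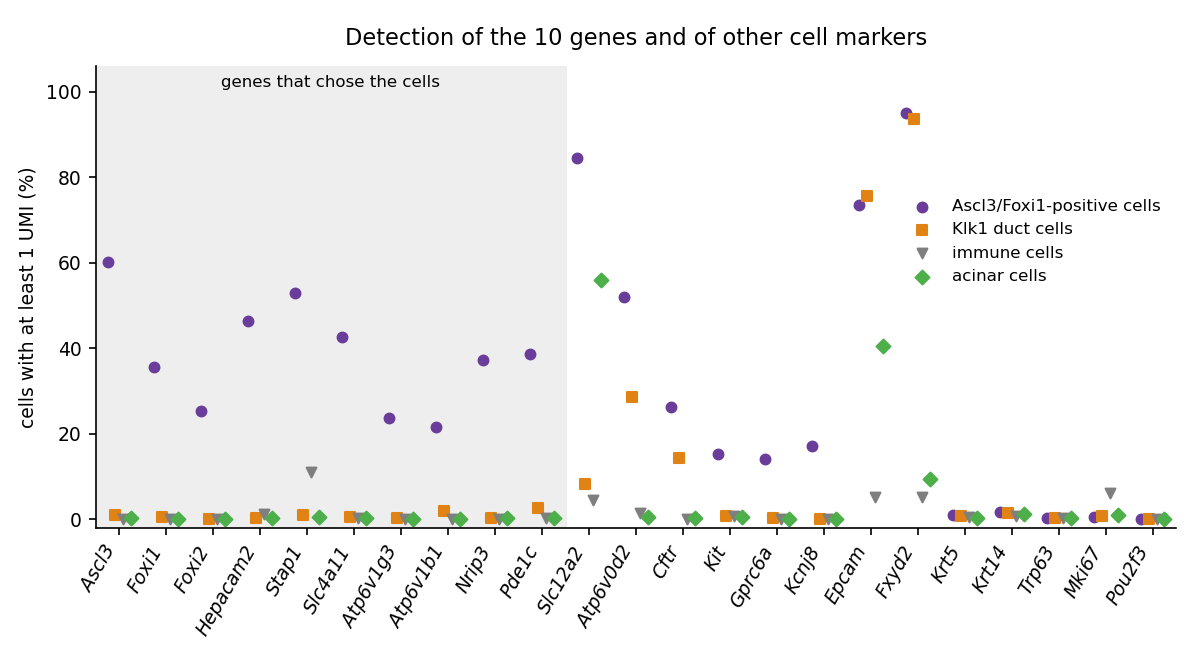
Share of cells with at least 1 UMI (percent, vertical axis) for the 10 genes that chose the cells (grey field) and for other genes, in Ascl3/Foxi1-positive, Klk1 duct, immune and acinar cells. Slc12a2 stands at 84.4% of Ascl3/Foxi1-positive and 8.38% of Klk1 duct cells, while Krt5, Krt14, Trp63, Mki67 and Pou2f3 lie below 2% of Ascl3/Foxi1-positive cells.

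The 10 genes occurred together beyond what the rule itself asks. When a gene was left out of the rule and the other 9 were used, Ascl3 had a UMI in 56.4% of the 1108 cells with 2 or more of the others, in 6.77% of cells with exactly 1 of them and in 0.415% of cells with none. The corresponding values were 33.0%, 3.23% and 0.193% for Foxi1 and 22.7%, 2.59% and 0.0515% for Foxi2. Ascl3 was higher in the chosen cells in 26 of 26 glands with at least 10 such cells, and its share there ranged from 20% to 82.4% (median 56.2%). These shares are given as a description, since the list of 10 genes was itself drawn up from cells of these glands.

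The 3 transcription factors were not detected in every cell at once. Ascl3 was found with Foxi1 or Foxi2 in 385 cells (31.8%), without them in 343 (28.3%), and 243 cells (20.1%) held a Foxi transcript without Ascl3. Foxi1 and Foxi2 were found together in 110 cells. In 240 cells (19.8%) none of the 3 was detected. Median depth was 1430 UMIs in cells with Ascl3 and a Foxi gene, 1170 in cells with Ascl3 alone, 1067 in cells with a Foxi gene alone and 1088 in cells with none of the 3. The deepest class was thus the one with both kinds of factor, the other 3 lay close together, and how much of the split is depth was not tested.

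Cells just inside and just outside the rule differed. The 305 cells with exactly 2 of the 10 genes held Fxyd2, the γ-subunit of the sodium-potassium pump, in 87.5% and Slc12a2 in 72.1%, and had a median of 7.90% mitochondrial UMIs. The 1515 cells with exactly 1 held Fxyd2 in 31.6% and Slc12a2 in 31.9%, at 3.19% mitochondrial UMIs. In cells with none of the 10 genes these values were 18.5%, 30.6% and 2.26%.

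The label of duct progenitors was compared with marker genes. Duct and epithelial genes were found in most cells, with Fxyd2 in 95.05%, Epcam in 73.4% and Krt7, a keratin of simple ducts, in 51.4%. The basal cell markers Krt5, Krt14 and Trp63 were nearly absent, in 1.07%, 1.82% and 0.413% of cells, against 0.508%, 0.825% and 0.222% in immune cells. The cycling genes Mki67 and Top2a were found in 0.661% and 0.743%, and the tuft cell genes Pou2f3 and Trpm5 in 0 of 1211 cells, which allows a share of up to 0.248% of cells with a UMI for each and sets no limit on cells that express them, since Foxi2 itself was missed in most cells. Kit, a receptor used as a progenitor marker in salivary ducts, was found in 15.4% of the cells against 0.744% of Klk1 duct cells. It was the most often detected gene of the basal and progenitor list. Itga6 followed with 11.6% against 17.2% of Klk1 duct cells, and Itgb4 with 7.43% against 5.24%. The markers thus place the cells in the duct epithelium and show few transcripts of Krt5, Krt14, Trp63, Mki67 and Top2a. The cells are called by their genes here. Transcripts of other types were also present, since 387 cells (31.96%) had Klk1 at 1% or more of UMIs, 69 (5.70%) had the acinar gene Prol1 at that level and 39 held 3 or more immune genes. Summed over the 10 genes of each list, acinar transcripts had a median over glands of 216 (14.4 to 1169) UMIs per 10,000 UMIs in these cells and 1219 in other cells, and immune transcripts 2.42 (0 to 23.7) and 8.31. Endothelial (8 genes), fibroblast (6 genes) and myoepithelial (6 genes) lists had medians of 0.113, 1.11 and 0.119 in these cells and 1.13, 1.95 and 1.04 in other cells. The basal and progenitor list (14 genes) was higher in these cells in 19 of 26 glands, with medians of 3.04 and 1.56. The proliferation list (14 genes) was higher in them in 18 of 26 glands, with medians of 1.93 and 1.36. These sums are scaled by UMI totals, and on that scale the median log2 fold change of all tested genes was 1.23. No direction is therefore read from the sums of the basal and progenitor list and the proliferation list. Doublets were not called, 45 cells exceeded 5000 UMIs and the highest had 28940, and their part in the results was not tested.

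Within a gland, Ascl3/Foxi1-positive cells held fewer UMIs but more genes than the other cells. The median number of genes per cell was higher in 25 of 26 glands, by 187 on average (two-sided permutation test over glands by sign flips, adjusted p = 3e-05). The rule asks for detected genes and so itself favors cells with more of them. The median over glands was 637 genes, against 594 in Klk1 duct cells. The median UMI count was lower in 21 of 26 glands, by 641 on average (permutation test, adjusted p = 0.0003). The share of mitochondrial UMIs was higher in 26 of 26 glands, with a median over glands of 8.14% against 2.52% in other cells and 8.18% in Klk1 duct cells (permutation test, adjusted p = 3e-05). The limit of 15% removed 271 of the 1482 barcodes that met the gene rule (18.3%), against 9.79% of the other barcodes. Among barcodes that met the gene rule it removed 11.6% in control and 26.9% in double-mutant glands.

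The share of Ascl3/Foxi1-positive cells was then compared between glands, to ask whether this duct population changed with the tumor, sex or stage. In control glands at P40 it was 9.01%, 12.2%, 2.44%, 5.97%, 3.58% and 4.73% in replicates 1 to 6. In control glands at P90 it was 8.47%, 8.37%, 4.05%, 1.58%, 7.59% and 7.31%. The 2 control groups overlapped, with P40 replicates 1 and 2 above every P90 gland.

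In double-mutant glands at P40 the share was 6.77%, 1.69%, 7.79%, 8.18%, 1.82%, 2.85% and 6.35% in replicates 1 to 7. In double-mutant glands at P90 it was 2.25%, 1.98%, 3.19%, 0%, 0.662%, 2.27% and 5.15%. At P90 the 4 highest shares were all of control glands, and the groups overlapped through control replicates 3 and 4 and double-mutant replicate 7. Klk1 duct cells numbered between 52 and 321 per control gland at P90 and between 6 (replicate 4) and 197 per double-mutant gland. Their share was not tested, so that a lower share is not shown to be particular to Ascl3/Foxi1-positive cells.

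**Figure D2:**
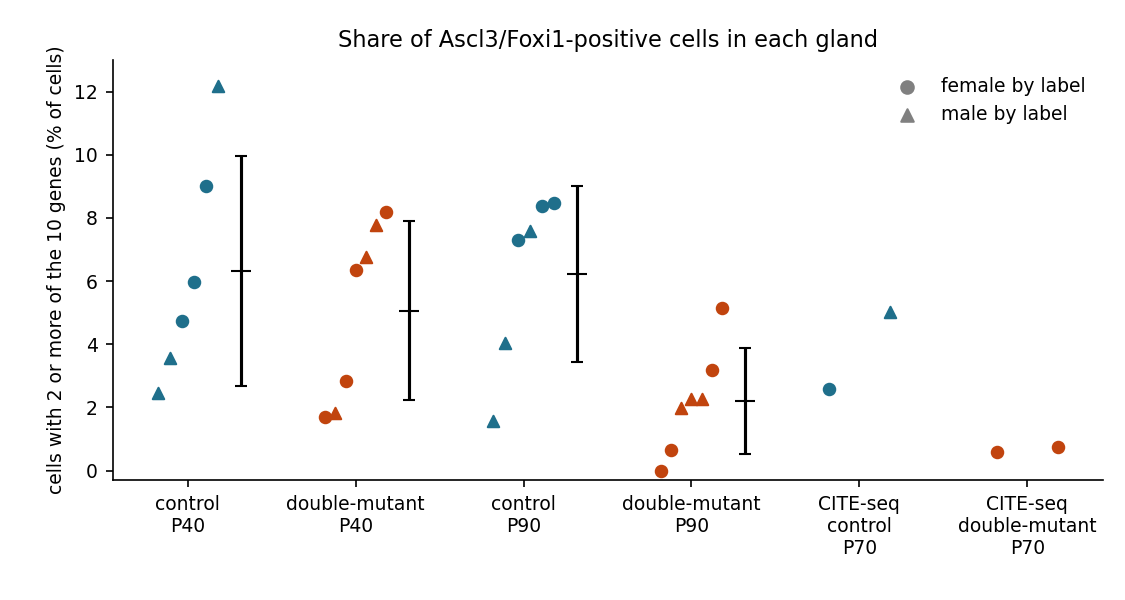
Share of Ascl3/Foxi1-positive cells among kept cells (percent, vertical axis) in each of 30 glands by group; circles are glands labelled female and triangles glands labelled male, and black bars give mean ± SD for groups of 6 or 7 glands. The 7 double-mutant glands at P90 lie between 0% and 5.15%, and the 12 control Drop-seq glands between 1.58% and 12.2%.

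The mean share was 6.27% ± 3.10 (SD, n = 12) in control and 3.64% ± 2.69 (SD, n = 14) in double-mutant glands, a difference of -2.63 percentage points (two-sided permutation test, p = 0.0297). Adjusted over the 5 share comparisons, p was 0.0742, so that the difference did not pass the threshold of 0.05. At P40 the means were 6.32% ± 3.65 (SD, n = 6) and 5.06% ± 2.84 (SD, n = 7), with an exact permutation p of 0.498 (adjusted p = 0.622). At P90 they were 6.23% ± 2.79 (SD, n = 6) and 2.21% ± 1.68 (SD, n = 7), with an exact permutation p of 0.0140 (adjusted p = 0.0699). The difference between the stages in the size of the genotype effect was -2.76 percentage points and did not pass a permutation test (p = 0.237). A binomial mixed model with sex, stage and genotype as fixed effects and the gland as random effect gave an odds ratio of 0.472 (95% interval 0.264 to 0.844, p = 0.0114).

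Batches, as numbered in the labels, bore on this comparison. Where a batch held both genotypes at a stage, the control and double-mutant means were 10.6% and 8.18% in batch 12, 2.44% and 2.33% in batch 13, 4.76% and 6.35% in batch 14, 2.82% and 2.59% in batch 8, and 7.45% and 0% in batch 9. The double-mutant gland of batch 9 is the one set aside for its ribosomal content. With glands permuted within batch and stage, the difference was -1.72 percentage points (permutation p = 0.198). Without double-mutant P90 replicate 4 it was -2.35 (permutation p = 0.0516), and without control P40 replicate 2 it was -2.10 (p = 0.0631). Depth also differed between the genotypes, and when every cell was thinned to 500 UMIs, which left out 2624 double-mutant and 351 control Drop-seq cells, the difference was -1.41 (permutation p = 0.0737). A loss of these cells and a gain of other cells cannot be told apart from shares, and with epithelial cells as the denominator the difference was -2.72 (permutation p = 0.0845).

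Sex and stage gave no difference past the threshold. The share was 7.31% ± 1.66 (SD, n = 6) in female and 5.24% ± 3.97 (SD, n = 6) in male controls (exact permutation test, p = 0.258, adjusted p = 0.429). Without control P40 replicate 2, the male gland at 12.2%, the difference of -2.07 percentage points became -3.46 (exact permutation p = 0.0260, unadjusted). The shares at P90 and P40 in controls differed by -0.087 percentage points (exact permutation test, p = 0.968) (no batch held controls of both stages, so that these effects cannot be told apart). In CITE-seq the share was 5.01% and 2.57% in the control glands and 0.749% and 0.576% in the double-mutant glands, a difference that an exact permutation test over 4 glands cannot bring past the threshold.

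The other transcripts of the cells were compared within each gland between the summed UMIs of Ascl3/Foxi1-positive cells and of all other cells, in 26 glands with at least 10 of the former (24 by Drop-seq and 2 by CITE-seq). The 10 genes were left out. Of 3697 genes tested, 49.7% passed an adjusted p of 0.05 with edgeR's quasi-likelihood test, 18.4% higher and 31.3% lower in Ascl3/Foxi1-positive cells. Since the cells were chosen by genes of one kind of cell, so large a number of differences from a mixture of other cells is a description of the cells, and single genes are to be read by the size of their difference. The scaling mattered: the median log2 fold change of all genes was -0.10 with TMM factors and 1.23 with UMI totals alone, under which 3279 genes were called higher and 137 lower, and values below are with TMM. The p-values measure the spread between glands labelled as separate samples.

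Genes of the proton pump were mostly higher. Of 8 tested genes for V1 subunits 6 were higher and 0 lower, with a median log2 fold change of 0.79 against -0.10 over all genes, and of 6 tested V0 and accessory genes 5 were higher and 0 lower (median 0.97). Atp6v0d2, a V0 subunit of acid-secreting cells that was not in the rule, had between 1.89 and 8.34 UMIs per 10,000 UMIs (median 5.49) in Ascl3/Foxi1-positive cells of the 26 glands. In the other cells it had between 0.050 and 0.581 (median 0.209), so that the groups did not overlap, and its log2 fold change was 3.18 (SE 0.17). The accessory subunit gene Atp6ap2 rose by 1.74 (SE 0.10) and the V1 genes Atp6v1a and Atp6v1e1 by 1.31 (SE 0.11) and 1.26 (SE 0.11) on the log2 scale. The widely used subunits Atp6v1b2 (-0.05, SE 0.18), Atp6v1c1 (-0.02, SE 0.17) and Atp6v0d1 (-0.21, SE 0.15) did not pass the test. With RLE factors 6 V1 and 4 V0 genes were higher and 0 lower.

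Genes of ion transport were mostly higher. Of 14 tested genes of this list 9 were higher and 4 lower, with a median log2 fold change of 1.25. Cftr, the chloride channel mutated in cystic fibrosis, had a median of 1.90 UMIs per 10,000 UMIs (0.691 to 5.04) against 0.109 (0.0128 to 0.306) in other cells, and its log2 fold change was 2.87 (SE 0.18). The subunits of the epithelial sodium channel Scnn1a and Scnn1b had 2.18 (SE 0.19) and 1.84 (SE 0.19), and the large potassium channel Kcnma1 had 1.98 (SE 0.16). The acinar water and chloride channels Aqp5 and Ano1 were lower, at -3.29 (SE 0.21) and -2.90 (SE 0.25). The carbonic anhydrases Car2 and Car12 were lower with TMM, at -0.73 (SE 0.22) and -0.76 (SE 0.18), but with UMI totals only 2 genes of the list were lower.

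Among the named higher genes, which had to be found in at least 10% of the cells and to carry no clone name, the 4 with the largest differences had low levels. Gprc6a, a receptor for amino acids, had between 0.244 and 4.004 UMIs per 10,000 UMIs (median 0.941) in Ascl3/Foxi1-positive cells and between 0 and 0.0186 in other cells, without overlap between the groups, at a log2 fold change of 6.35 (SE 0.27). Kcnj8, the pore subunit of an ATP-sensitive potassium channel, followed with 5.99 (SE 0.22) and the G-protein subunit gene Gng4 with 5.69 (SE 0.24). Rcan2, a regulator of calcineurin, had 5.06 (SE 0.22). Gprc6a was found in 14.1% of Ascl3/Foxi1-positive, 0.406% of Klk1 duct and 0.0114% of acinar cells.

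Aldh1a3 and Aldh1a1, enzymes that make retinoic acid, had log2 fold changes of 4.88 (SE 0.23) and 3.66 (SE 0.16). Aldh1a1 had between 0.405 and 4.62 UMIs per 10,000 UMIs in the 26 glands against 0.00648 to 0.173 in other cells. The growth factor gene Fgf10, known from salivary gland branching, had 4.31 (SE 0.25) and was found in 14.7% of the cells against 0.521% of the others. The remaining named genes, Cpxm2, Tmprss13, Ckap2, Plxna4, Itih5, Gria3, Asgr1 and Pdlim3, had log2 fold changes between 3.36 and 4.51. All 15 named higher genes were called in each of the 8 alternatives run.

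Secretory genes of other cell types made up the named lower genes. Dcpp3, Dcpp2 and Dcpp1, secreted proteins of ducts with near-identical copies that the counting may split, had log2 fold changes of -5.14 (SE 0.53), -4.91 (SE 0.49) and -4.79 (SE 0.52). Smgc, a submandibular mucin-like gene, had -4.44 (SE 0.36), and the secreted products Bpifa2, Car6, Prol1 and Scgb2b26 had between -4.49 and -4.26. Of the acinar list 9 of 9 tested genes were lower, of the intercalated duct list 5 of 6 and of the immune list 7 of 7. Their transcripts were nonetheless present in many cells, with Prol1 in 73.9% of Ascl3/Foxi1-positive, 76.2% of Klk1 duct and 57.6% of immune cells.

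Luminal duct genes stood higher than in the mixture, with 6 of 8 tested genes higher and 0 lower. Of the basal and progenitor list only 3 of 14 genes had enough counts to be tested. Kit, at 2.997 (SE 0.23), and the integrin gene Itgb4, at 0.51 (SE 0.18), were higher, and the integrin gene Itga6 was lower, at -0.62 (SE 0.15), with TMM and higher with UMI totals. Neither of the tested proliferation genes Pcna and Hmgb2 passed the test, and no gene of the tuft cell list had enough counts. Among 9 tested transcription factors Tfcp2l1 had a log2 fold change of 1.76 (SE 0.13) but was at -0.01 (SE 0.08) against Klk1 duct cells, Elf3 was also higher (1.199, SE 0.15), and Klf5 and Elf5 were lower with TMM and higher with UMI totals. Notch2 was higher (0.78, SE 0.23) and the Notch target Hes1 did not pass the test.

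Genes of the pathways changed in the double mutants were measured in the same comparison. Of the 15 genes of the Wnt and Bmp list only Id1, Id2, Id3, Ctnnb1 and Bmpr1a had enough counts to be tested, and 3 were higher and 0 lower, beside 18.4% higher over all genes. Id3 and Id1, targets of Bmp signaling, had log2 fold changes of 1.55 (SE 0.18) and 1.44 (SE 0.21), and Ctnnb1, which encodes β-catenin, had 0.93 (SE 0.10). Bmpr1a did not differ by more than its error (-0.01, SE 0.17), and the Wnt target Axin2 had 0 UMIs in these cells in 23 of 26 glands. The untested Wnt genes Wif1, Nkd1 and Lef1 were found in 0.165%, 0.413% and 0.0826% of Ascl3/Foxi1-positive cells, against 2.12%, 1.40% and 0.605% of other cells. Klk1 duct cells were also low, at 0.169%, 0.169% and 0.135%.

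Klk1 duct cells share the mitochondrial level and Fxyd2 (93.6% of cells) with the Ascl3/Foxi1-positive cells, and the comparison with them asks what differs between these 2 kinds of duct cell. No other duct cells were defined. Of 1073 genes tested in 26 glands, 53.4% were called, 24.5% higher and 28.9% lower. The median log2 fold change of all genes was 0.01 with TMM and 0.27 with UMI totals, under which 539 genes were higher and 129 lower. Klk1, the keratins and Epcam that chose the Klk1 duct cells were left out of the test.

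Pump genes stood higher in this comparison too. Of the V1 list 4 of 5 tested genes were higher and 0 lower, and of the V0 and accessory list 4 of 4, with medians of 0.64 and 0.91. Atp6ap2 had a log2 fold change of 1.37 (SE 0.10), Atp6v1d 1.07 (SE 0.11), Atp6v1g1 1.01 (SE 0.14) and Atp6v0d2 1.01 (SE 0.09). Atp6v0d2 was higher in 25 of 26 glands, but its levels in Klk1 duct cells, between 0.535 and 3.74 UMIs per 10,000 UMIs, overlapped with those of Ascl3/Foxi1-positive cells.

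Transporters split the duct cells. Slc12a2, the sodium-potassium-chloride cotransporter NKCC1, had between 8.51 and 47.2 UMIs per 10,000 UMIs (median 21.4) in Ascl3/Foxi1-positive cells and between 0 and 2.41 (median 0.834) in Klk1 duct cells. The ranges did not overlap, and its log2 fold change was 4.20 (SE 0.16, adjusted p = 2.72e-22 with edgeR). Of 8 tested genes of the ion transport list 2 were higher and 5 lower with TMM. Cftr was also higher, at 0.87 (SE 0.14), and Scnn1a did not pass the test (0.22, SE 0.14). The sodium pump genes Atp1b1 (-0.41, SE 0.08) and Fxyd2 (-0.28, SE 0.08), the sodium channel gene Scnn1b (-0.40, SE 0.12) and the potassium channel gene Kcnj16 (-1.99, SE 0.23) were lower with TMM. With UMI totals 3 genes of the list were higher and 1 lower. Acinar cells also held Slc12a2, in 56.1% of cells, at 3.41 UMIs per 10,000 UMIs.

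**Figure D3:**
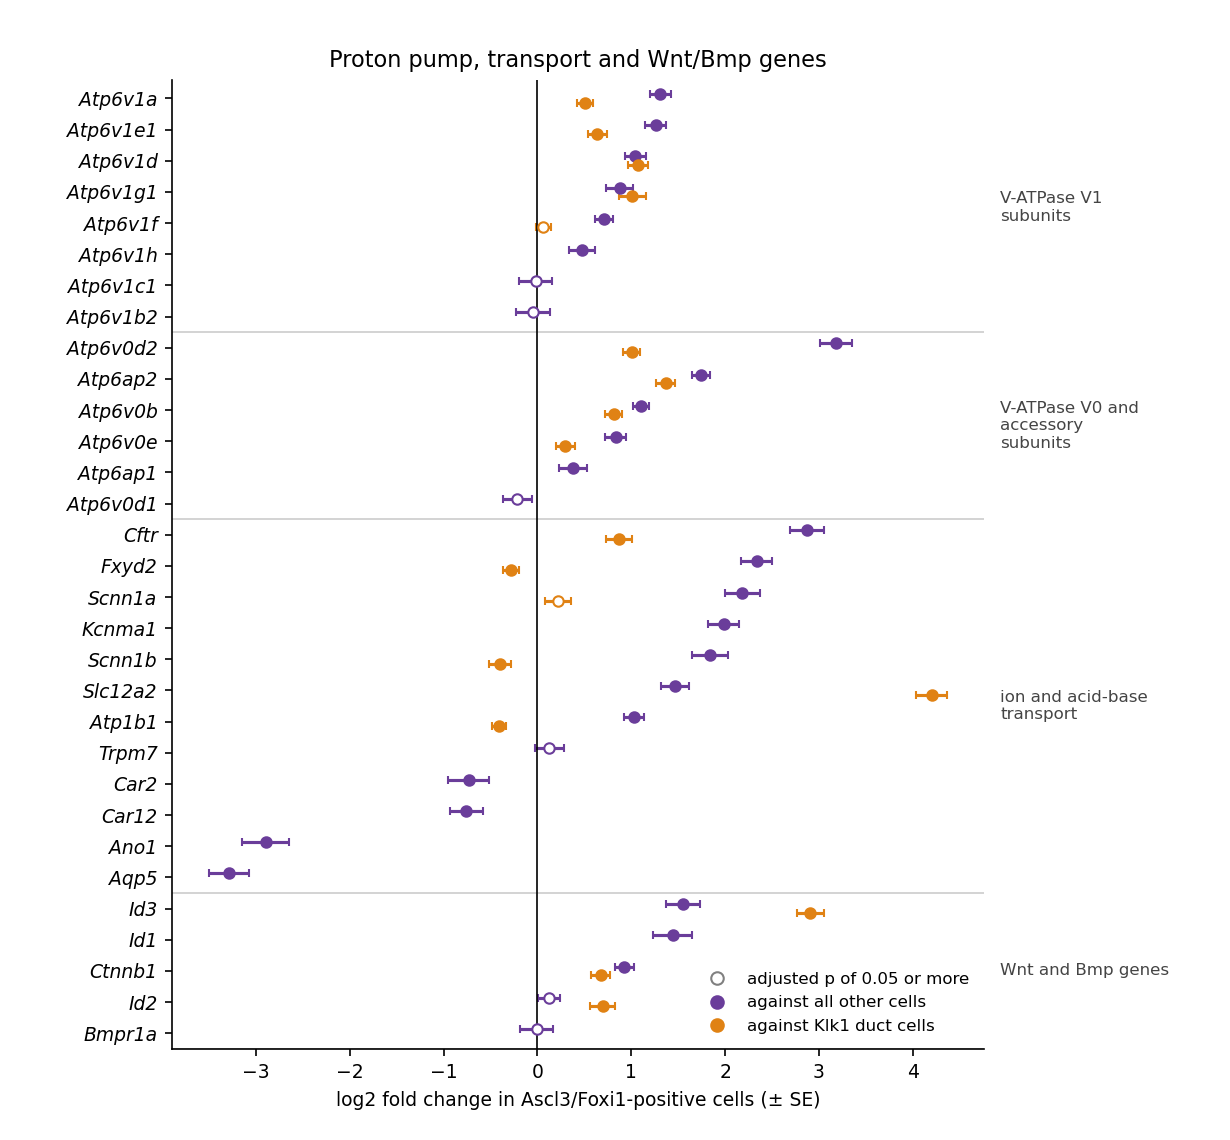
Log2 fold change (± SE, horizontal axis) of the genes of 4 lists that could be tested against all other cells and are reported here, in Ascl3/Foxi1-positive cells against all other cells (purple) and against Klk1 duct cells (orange), with edgeR and TMM factors in 26 glands; open circles have an adjusted p of 0.05 or more. Slc12a2 stands at 1.47 against all other cells and at 4.20 against Klk1 duct cells, while Fxyd2 stands at 2.34 and -0.28.

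Among the named genes higher than in Klk1 duct cells, Itih5, a hyaluronan-binding protein, had the largest difference (4.64, SE 0.21), with 27.1% of cells against 0.913%. Ncald, a calcium sensor, had 3.54 (SE 0.17), Pam, which amidates peptide hormones, 3.48 (SE 0.16) and Serpinb9, an inhibitor of granzyme B, 2.93 (SE 0.12). Id3 had 2.91 (SE 0.14), at a median of 4.76 UMIs per 10,000 UMIs against 0.524. Ctnnb1 and Id2 were also higher, at 0.67 (SE 0.11) and 0.69 (SE 0.13). Only 3 of the 15 genes of the Wnt and Bmp list could be tested, and these 3 were higher, beside 24.5% higher over all genes. The interferon-induced genes Ifi27l2a and Ifitm3 had 2.55 (SE 0.16) and 2.22 (SE 0.15). Litaf, Asgr1, Cgnl1, S100a6, Vps36, Apobec3 and Gnaq had between 1.89 and 2.82.

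Genes of the granular duct were lower in 9 of 9 tested cases, with a median log2 fold change of -2.09. Since the Klk1 duct cells were chosen by a high level of Klk1, products made together with it are raised in them by that choice, and these values describe the 2 sets and are no independent finding. The named lower genes were the kallikreins Klk1b9, Klk1b1, Klk1b3, Klk1b5, Klk1b26, Klk1b22 and Klk1b4 and the renin gene Ren1, with log2 fold changes between -2.24 and -2.06. The kallikrein copies are close to identical in sequence, so that reads may have been split between them. Acinar genes did not separate these 2 sets, with 0 of 3 tested genes called. The immune gene Cd74 was higher, at 1.06 (SE 0.25).

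Energy genes depended on the comparison and on the scaling. Against all other cells, 61 of 79 tested nuclear genes of oxidative phosphorylation were higher and 1 lower, and 9 of 10 mitochondrial transcripts were higher. Against Klk1 duct cells, 3 of 73 were higher and 57 lower with TMM, with a median of -0.31, but 9 higher and 18 lower with UMI totals. The mitochondrial transcripts were chosen in part by the limit of 15%.

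Expression within Ascl3/Foxi1-positive cells was compared between double-mutant and control glands, with 12 glands each and with sex and stage as covariates. Of 955 genes tested, 7 were called (0.733%), 6 higher (0.628%) and 1 lower (0.105%), while 123 genes had an unadjusted p under 0.05. DESeq2 called 28 genes, the fit with UMI totals 64, and the fit on glands with at least 20 such cells 0. The kallikrein gene Klk1b5 was the lower gene, with 1012 ± 976 CPM (UMIs per 1000000 UMIs of the summed cells; SD, n = 12) in double-mutant and 3936 ± 2836 (SD, n = 12) in control glands. Its ranges of 0 to 3122 and 1255 to 9944 overlapped, its log2 fold change was -2.15 (SE 0.42, adjusted p = 0.0234 with edgeR), and it was called in 9 of 10 alternatives but not on glands with at least 20 cells (adjusted p = 0.0953). Klk1b5 was also called lower in the UMIs summed over all kept cells of a gland, and what part of the difference came from free RNA was not tested.

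The 6 higher genes had smaller differences. The ribosomal protein genes Rps28 and Rps27 had log2 fold changes of 1.41 (SE 0.31) and 0.76 (SE 0.18), the fatty acid oxidation gene Acadl 1.15 (SE 0.26) and the ATP synthase subunit gene Atp5k 0.67 (SE 0.15). Pam and Serinc3 had 0.75 (SE 0.18) and 0.59 (SE 0.14). Of these genes 5 could be tested in the fit within batches that held both genotypes, and 0 were called there. Of 5 tested V1 genes, 4 V0 and accessory genes, 8 transport genes and 4 Wnt and Bmp genes 0 were called, beside 0.733% over all genes. At that rate so few tested genes cannot tell whether these lists differ. The glands gave sums from as few as 11 cells.

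Kallikrein levels in these cells differed with sex. Between 6 male and 6 female control glands, 15 of 1014 genes were called (1.48%), 14 higher (1.38%) and 1 lower (0.0986%) in males. Egf, the epidermal growth factor of the granular ducts, had between 630 and 5386 CPM in the 6 male glands and between 26.1 and 316 in the 6 female glands, without overlap (log2 fold change 3.78, SE 0.59, adjusted p = 0.00118 with edgeR). Klk1b16 had 4.05 (SE 0.56) and Klk1b8 3.74 (SE 0.50), and Klk1b4, Klk1b27, Klk1b24, Klk1b9, Klk1b11, Klk1b3 and Klk1b21 had between 2.07 and 3.15. The lower gene was Xist, with 0 UMIs in the 6 male glands and between 230 and 427 CPM in the 6 female ones.

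The medians of these products were higher in males in each of the 4 cell sets examined. The UMIs of 15 genes (13 kallikrein genes with Egf and Ren1) were summed per 10,000 UMIs of a cell set in a gland. In Ascl3/Foxi1-positive cells the median over glands was 173 in female and 508 in male controls, and in Klk1 duct cells it was 405 and 2173. In immune cells, which are not known to make these products, it was 1.53 in 6 female and 32.8 in 3 male glands, and in acinar cells 1.26 and 13.6. Ascl3/Foxi1-positive cells therefore held fewer of these UMIs than Klk1 duct cells and many more than immune cells, and what part of them came from free RNA or from doublets was not tested.

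**Figure D4:**
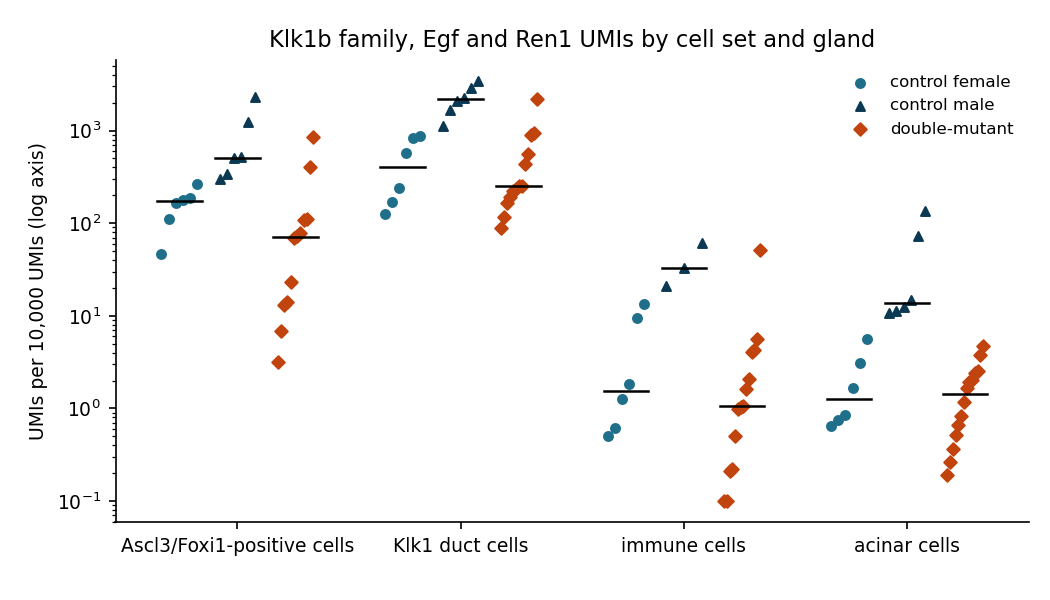
UMIs of the Klk1b family, Egf and Ren1 per 10,000 UMIs (log axis) in 4 cell sets, 1 point per gland with at least 10 cells of a set and black bars at medians; 2 double-mutant glands with 0 and 0.0607 in immune cells are drawn at 0.1. Medians in Ascl3/Foxi1-positive cells were 173 in control females, 508 in control males and 70.8 in double mutants.

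In double-mutant glands the same sum had a median of 70.8 in Ascl3/Foxi1-positive cells (3.15 to 855, 12 glands) against 249 in Klk1 duct cells (13 glands) and 1.05 in immune cells (14 glands). The control values, over both sexes, were 282 (46.4 to 2284) in Ascl3/Foxi1-positive cells and 994 in Klk1 duct cells. Immune cells had a median of 9.56 in 9 control glands, and acinar cells 8.23 in 12 control and 1.42 in 14 double-mutant glands. The medians of this sum were thus lower in the double mutants in immune and acinar cells as well as in both kinds of duct cell. The ranges overlapped between the genotypes, and the difference was not tested.

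Between P90 and P40 controls, 19 of 1014 genes were called (1.87%), 19 higher (1.87%) and 0 lower (0%) at P90 with edgeR, while 139 genes had an unadjusted p under 0.05 and DESeq2 called 35, 4 of them lower. Of the 19 genes 12 carry names of clones or predicted genes. The named ones were the heat shock gene Hspa1b (2.39, SE 0.34), the immediate early gene Jund (2.34, SE 0.50), Klk1b4 (1.70, SE 0.38), Ost4 (1.53, SE 0.34), Rpl35 (1.11, SE 0.27), Usmg5 (1.08, SE 0.27) and Rps27 (0.87, SE 0.21). Hspa1b had between 357 and 1182 CPM at P90 and between 40.5 and 158 at P40, without overlap. Batch and stage were confounded in this comparison too.

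The 10 genes were also read in the summed UMIs of whole glands, where fewer cells of a type and less RNA per cell cannot be told apart. In these sums 24.9% of 8768 genes were called, 19.7% higher and 5.26% lower in double mutants, with a median log2 fold change of 0.18 over all genes. Of the 10 genes only Pde1c was called, with 17.997 ± 12.2 CPM (SD, n = 12) in control and 11.5 ± 5.19 (SD, n = 14) in double-mutant glands. Its log2 fold change was -0.83 (SE 0.27, adjusted p = 0.0273 with edgeR), and it was not called in 4 of 8 alternatives, among them the fit within batches (adjusted p = 0.116).

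The transcription factors had similar sizes of difference without passing the edgeR test. Ascl3 had 28.2 ± 24.7 (SD, n = 12, range 1.90 to 69.1) CPM in control and 17.3 ± 10.6 (SD, n = 14, range 0 to 33.8) in glands of double mutants, at a log2 fold change of -0.88 (SE 0.41, adjusted p = 0.115). Foxi1 had -0.74 (SE 0.33, adjusted p = 0.0989) and Foxi2 -0.95 (SE 0.41, adjusted p = 0.0835 with edgeR). DESeq2 called both lower, Foxi1 at -0.90 (adjusted p = 0.0337) and Foxi2 at -1.16 (adjusted p = 0.0323), and the other 7 alternatives did not. The other 6 genes had between -0.52 and 0.14. Control glands alone spanned more than the difference between the genotypes in each of these factors.

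In bulk RNA of 1 control and 1 double-mutant gland, without replicates, 9 of the 10 genes were lower in the double mutant. Ascl3 had 19.0 TPM (a level per transcript length and library total, computed here from the counts) in the control and 7.01 in the double mutant, Foxi1 2.96 and 1.73, and Atp6v1b1 5.39 and 2.32. Atp6v1g3 was the exception, with 11 and 40 reads. Of 13276 genes with at least 10 reads in both libraries 74.2% were also lower, with a median log2 ratio of -0.29, and the mice differed in age.

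The EYFP reporter is switched on by K14-Cre, and its transcripts were counted as far as they were captured. Over all glands, EYFP was found in 12.96% of Ascl3/Foxi1-positive, 10.2% of Klk1 duct, 7.46% of immune and 13.1% of acinar cells. Its levels there were 0.837, 0.652, 0.855 and 0.322 UMIs per 10,000 UMIs. An EYFP UMI is therefore not read as Cre activity in that cell, and what part came from free RNA was not tested. In the 14 control glands with at least 10 Ascl3/Foxi1-positive cells, EYFP was detected in a median of 18.4% of these cells (0% to 27.3%) and in 16.3% of other cells (0% to 28.5%). In 12 double-mutant glands the medians were 0% (0% to 33.3%) and 3.32% (0.251% to 30.6%). Double-mutant P40 replicates 2, 3 and 6 stood apart at 33.3%, 32% and 32.3% of these cells, while 8 double-mutant glands had none. In control P40 replicate 5 no cell of any kind held EYFP. Cre itself was found in 1.16% of Ascl3/Foxi1-positive cells. The shares of cells were not tested. In the summed counts EYFP was lower than in other cells with TMM factors (log2 fold change -0.75, SE 0.16) and higher with UMI totals (0.58), so that no direction is read from it. In whole glands EYFP was lower in double mutants (-1.74, SE 0.62, adjusted p = 0.0406 with edgeR), a call that was lost in 4 of 8 alternatives, among them the fits without double-mutant P90 replicate 4 and without the 2 glands whose sex genes go against their labels.

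Surface proteins of the cells were read by CITE-seq with 61 antibodies, in cells with at least 50 tags, from 36 and 19 Ascl3/Foxi1-positive cells in the control and 5 and 3 in the double-mutant glands. EpCAM made up a median of 12.9% and 12.9% of a cell's tags in the 2 controls, against 4.19% and 3.90% in other epithelial cells. Klk1 duct cells (31 and 28 cells) were at 16.2% and 11.9%, so that in the controls EpCAM set both duct populations apart from the other epithelial cells and not from each other. In the double mutants EpCAM was at 3.26% and 0.266% of tags in Ascl3/Foxi1-positive cells, and at 8.29% and 13.05% in Klk1 duct cells, values that rest on 5 and 3 and on 6 and 3 cells.

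CD29, the integrin β1 chain, was higher than in other epithelial cells in 4 of 4 glands, at 9.28% against 4.93% and 9.35% against 4.87% in the controls and 4.92% against 2.45% and 1.86% against 1.51% in the double mutants. In Klk1 duct cells of the controls it was at 9.45% and 5.23%. CD104, the integrin β4 chain, was at 3.86% against 2.07% and 2.85% against 1.93% in the controls, below the 4.404% and 3.93% of Klk1 duct cells, and at 1.88% against 1.27% and 0.162% against 0.965% in the double mutants, and Itgb4 RNA was found in 7.43% of Ascl3/Foxi1-positive cells over all glands. CD24 and CD133, also called prominin 1, were lower than in other epithelial cells in 4 of 4 glands, in the controls at 1.57% against 1.68% and 1.48% against 1.78% for CD24. The isotype control mIgG2a was also lower in 4 of 4 glands, at 0.9754% against 1.40% and 0.977% against 1.31% in the controls, so that the lower shares of CD24 and CD133 are not read as less protein. Of the 61 antibodies 3 were higher and 15 lower in all 4 glands, and with 2 glands per genotype no test was made. The higher ones were CD29, CD54 and SIRPα (CD172a). In double-mutant gland 2, MHC class II (IAIE) made up a median of 48.0% of tags in Ascl3/Foxi1-positive cells. It was at 0.850% in other epithelial and 0.407% in Klk1 duct cells of that gland. Ascl3/Foxi1-positive cells of the other glands had between 0.893% and 0.949%. Whether the 3 cells of that gland are duct cells was not tested.

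**Figure D5:**
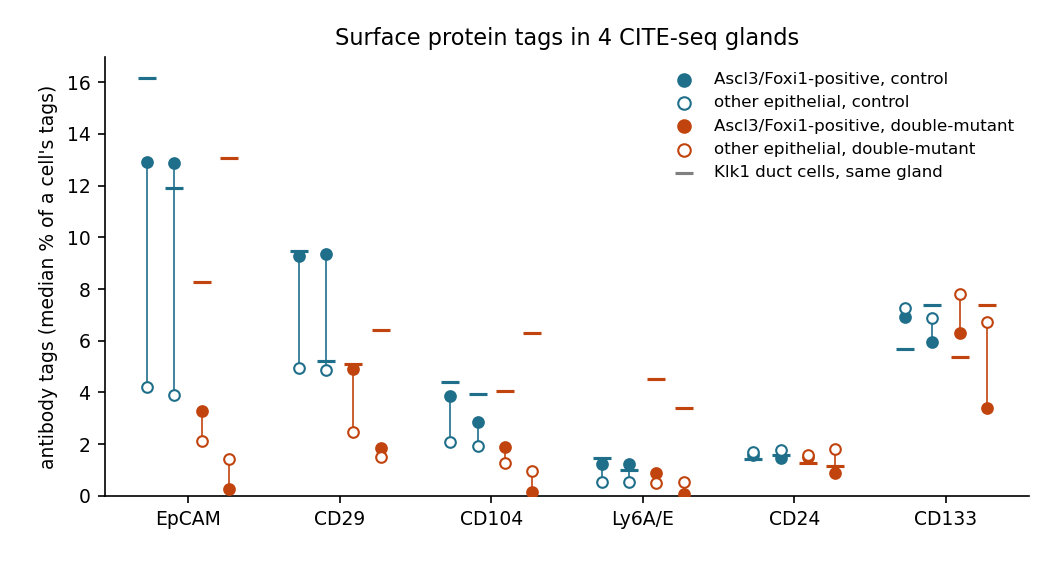
Median share of a cell's antibody tags (percent, vertical axis) for 6 surface proteins in Ascl3/Foxi1-positive cells (filled), other epithelial cells (open) and Klk1 duct cells (dashes), 1 column per CITE-seq gland in the order control 1, control 2, double-mutant 1, double-mutant 2. EpCAM is at 12.9% in Ascl3/Foxi1-positive cells of both controls, against 4.19% and 3.90% in other epithelial cells.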

How the data were processed

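Gene counts were taken as the authors deposited them. They had aligned reads to mm10 with STAR in the Drop-seq tools, with Cre and EYFP added as extra sequences, and counted UMIs per gene for the barcodes above the knee of each library. For CITE-seq, human spike-in cells had been removed by the authors, and the deposited counts of antibody tags do not say whether UMIs or reads were counted. The bulk libraries were deposited as raw counts per gene from featureCounts, from which TPM was computed. All columns of the tables were matched to samples by their labels.

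Cells, sums and shares were computed with Python 3.11.15, numpy 2.4.6, pandas 2.3.3 and scipy 1.17.1. Doublets were not called. Klk1 duct cells, immune cells and acinar cells were defined by fixed genes among the remaining cells. The replicate was the gland. UMIs were summed per gland and cell set, and genes were tested on these counts with edgeR 4.0.16 (R 4.3.3, quasi-likelihood test, filterByExpr, Benjamini-Hochberg adjustment), with the gland as block where sets of the same gland were compared and with sex and stage as covariates between glands. TMM factors were taken from genes with a mean CPM of 100 or more, a choice made after the script was tested on simulated data, since sparse genes had given false calls. Shares were compared by two-sided permutation tests over glands, exact or with 100000 resamples, and with a binomial mixed model (lme4 1.1.37). With 6 against 6 glands the smallest possible p was 0.00216 and with 6 against 7 it was 0.00117. Limits for a count of 0 use 3 counts and cover counting error only, as do intervals.

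The cells, the 10 genes and the gene lists were chosen with earlier results of these data known. Named genes were the 15 higher and 8 lower genes with the largest log2 fold change among those called and found in at least 10% of the cells of the higher set, and, between glands, up to 10 genes per direction with the smallest p, besides examples from the lists. Names of clones and predicted genes were counted and not named. DESeq2 1.42.0, RLE factors, UMI totals, other filters and limits, batch and replicate terms and leaving out glands were tried as alternatives. No columns of the authors' own comparisons were used. A few genes of the lists are counted and not reported here by name.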

Additional observations from a re-analysis of the deposited data

Results flagged for a closer look

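In groups of 4 to 10 glands, a gland was singled out when its gap to the nearest other gland, divided by the range of the group, exceeded Dixon's 95% critical value, which chance does in about 1 group of 20. Of 16 groups tested, 2 did. In double-mutant glands at P90, replicate 7 had a median of 1822 UMIs per Ascl3/Foxi1-positive cell, against 680 to 1076.5 in the other 5 glands with any such cell, of which replicate 5, at 680, held 8 (ratio 0.653). In control glands at P40, replicate 5 had EYFP in 0% of these cells, against 21.1% to 23.8% in the others (ratio 0.884), and its other cells held no EYFP either. The cause was not tested in either case.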

How the results depend on the processing

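The lower share of Ascl3/Foxi1-positive cells in double mutants (-2.63 percentage points) kept its direction in every alternative run, but its unadjusted permutation p rose above 0.05 with cells thinned to 500 UMIs (-1.41), 3 or more of the 10 genes (-1.91), epithelial cells as denominator (-2.72), no double-mutant P90 replicate 4 (-2.35), no limit on mitochondrial UMIs (-2.37, chosen after seeing the data) and permutation within batch and stage (-1.72). Leaving out 1 gland gave -3.06 to -2.10, and p rose above 0.05 without control P40 replicate 1 or 2, control P90 replicate 1 or 2, or double-mutant P90 replicate 4. The same range was -2.03 to -0.080 at P40, -4.94 to -3.57 at P90, -3.46 to -1.34 for sex and -0.86 to 1.08 for stage. The stage difference (-0.087) also turned with thinning (1.16), the epithelial denominator (0.026) and no mitochondrial limit (0.205).

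Counts of called genes moved by more than 1.5 times in some fits. Without the filter on low counts they were 4729 against other cells, 1422 against Klk1 duct cells, 80 for genotype, 57 for sex, 234 for stage and 3412 in whole glands. UMI totals without TMM factors, added after seeing the data, gave 3416 against other cells, 64 for genotype and 4609 in whole glands, and DESeq2 gave 28 for genotype, 29 for sex and 35 for stage. For genotype, 3 or more of the 10 genes gave 3 calls, at least 20 cells per gland 0 (103 at an unadjusted p under 0.05, edgeR), the number of cells as covariate 1, leaving out the 2 glands whose sex genes go against their labels 2, and batch as a factor 3. For sex and stage, 3 or more of the 10 genes gave 10 and 10. In whole glands Atp6v1b1 turned to 0.19 (UMI totals) and 0.17 (batch), Hepacam2 to 0.073 (batch), Slc4a11 to 0.027 (UMI totals) and 0.19 (batch), and Stap1 to -0.14 (DESeq2) and -0.051 (without those 2 glands). None of these genes was called.

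Replicate numbers are shared between genotypes and stages, but nothing says that they pair the glands, and same-numbered glands correlated at -0.13 to 0.34. With the replicate number as a block, the genotype share difference was -2.98 (p = 0.0356, permutation) and the stage one -0.087, while 15 genes were called for genotype, 12 for stage and 2822 in whole glands, where Atp6v1b1 was at 0.025. At a median of 1215 UMIs per cell, genes of low level were missed in most cells, so that a share of cells without a UMI is not a share of cells without expression.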
